A study of Homo sapiens with 6 samples.

Results

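The genes described here are 54 developmental homeobox transcription factors outside the HOX clusters, chosen by symbol from the NKX, EN, MSX, PAX, LHX, ISL, MEIS, PBX, IRX, OTX, PITX and related families, among 60483 genes in the count table. RNA was sequenced from A2780, a human ovarian carcinoma cell line that kept its own CDK12 (WT, 3 libraries), and from the same line with CDK12 disrupted (CDK12 KO, 3 libraries). CDK12 is a kinase that acts on RNA polymerase II during transcription. The disruption was made with a CRISPR/Cas9 plasmid aimed at exon 1, the KO cells are a single clone, and neither group received a drug, so loss of CDK12 and other features of that clone cannot be told apart. Each library is given as its raw read counts per gene or as CPM (counts scaled to a common library total), with totals of 11098400 to 30899045 counts, and 3 counts, taken here as the floor, corresponded to 0.0971 to 0.27 CPM.

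Homeobox genes encode proteins that bind DNA through a homeodomain and set the identity of cells along the body axes and within organs. Many are read in only a few embryonic tissues and are otherwise silent. The ANTP class (NKX, EN, MSX, CDX, GBX, BARX) patterns the neural tube, face, gut and skeleton. PAX proteins add a paired domain, and LIM proteins (LHX, LMX, ISL) add zinc fingers that bind the cofactor LDB1. The TALE class holds MEIS, PBX, TGIF and IRX, of which MEIS and PBX are widely used DNA-binding partners of other homeodomain proteins.

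Of the 54 genes, 29 had enough counts to be tested, and 10 of these were called, 7 higher and 3 lower in CDK12 KO cells. NKX2-2, EN2 and MSX1, at or close to the floor in WT cells, rose the most, and PROX1, NKX3-2, PAX6 and MSX2 also rose. CDX2 had counts in every WT library and none in any KO library, ISL1 fell to near the floor, and MEIS3 fell to a lower level. A gene was called at an adjusted p under 0.05 (quasi-likelihood test in edgeR, Benjamini-Hochberg method over 16198 genes) and a log2 fold change (KO minus WT) beyond 1 or -1. By that rule 8.30% of all genes tested were called up and 7.73% down, or 16.0% in either direction, against 34.5% of the tested homeobox genes. That share is not a like-for-like comparison, because some of the tested genes passed the count filter through the group where they are high. For 3 genes (NKX2-2, EN2, PROX1) only KO libraries reached the level of the filter, and for 2 (CDX2, ISL1) only WT libraries. Another 3 (NKX3-2, MSX1, PAX6) reached it in every KO library but not in every WT library. When only genes that reached 10 counts in all 6 libraries were fitted, 21 homeobox genes remained and 2 were called, or 9.52%, beside 9.35% of the 13405 genes of that fit. These were MSX2, beside 4.23% of genes called up, and MEIS3, beside 5.12% called down. The median log2 fold change was 0.01 over the 29 tested homeobox genes, also with CDX2 set at its bound, and 0.00 over all genes, while the median size of the change regardless of sign was 0.69 against 0.32. That difference shares the limit of the count filter, and in the fit of genes that reached 10 counts in all 6 libraries the medians were 0.41 and 0.27.

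**Figure D1:**
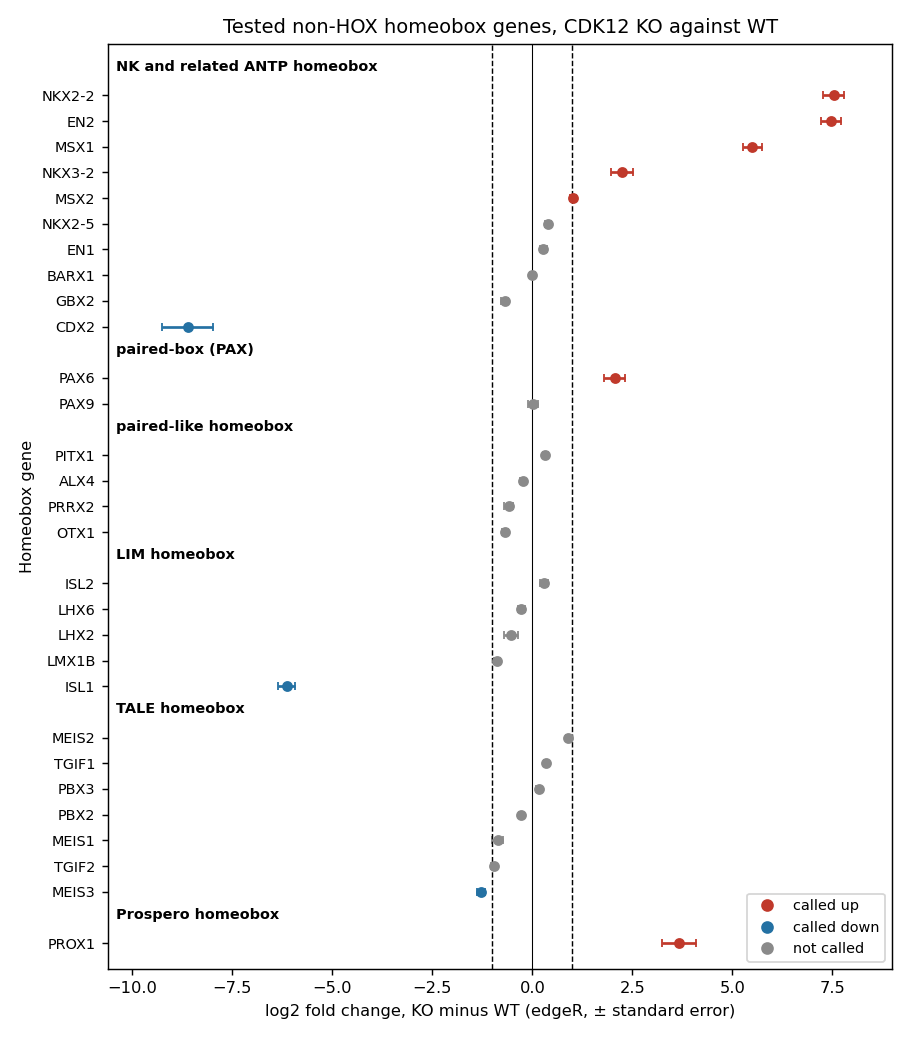
Log2 fold change, KO minus WT, of the 29 tested homeobox genes, with dashed lines at 1 and -1. Bars are the standard error worked back from the F statistic of the edgeR test, which understates the error for genes near the floor. The 7 genes called up run from MSX2 at 1.02 to NKX2-2 at 7.53, the 3 called down include ISL1 at -6.14, and the value drawn for CDX2, at 0 counts in KO, depends on the fit's prior count and is no measured fold.

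Most of these genes start in DNA rich in CG dinucleotides, whether they rose, fell or were silent. The 30 bases just before the annotated start are shown for the 4 genes with the largest called changes whose start is the same in RefSeq and GENCODE, EN2 and MSX1 among those that rose and CDX2 and ISL1 among those that fell (RefSeq sequence, GRCh38.p14, 5′ to 3′ on the gene's own strand, CG in capitals). EN2 lies at chr7:155458099-155458128 and MSX1 at chr4:4859635-4859664, both on the plus strand, CDX2 at chr13:27969316-27969345 on the minus strand, and ISL1 at chr5:51383418-51383447 on the plus strand.
EN2: CGgCGaagtCGaggacttggctctgttgaa
MSX1: ttattagcaagttctctggggagcCGCGgt
CDX2: attactaatagagtcttgtaaacactCGtt
ISL1: gataaggaagagaggtgccCGagcCGCGcc
Over 300 bases (250 before the start and 50 after it), the ratio of observed CG dinucleotides to the number that the base composition gives was 1.11 for EN2, 0.752 for MSX1, 0.844 for CDX2 and 1.08 for ISL1. Promoters of this length were found for 41 of the 54 genes, and their median ratio was 0.812, against 0.769 for the 15218 protein-coding genes of the count table that had one. A ratio above 0.6 was held by 82.9% of the homeobox promoters and by 66.8% of those protein-coding promoters. Within the homeobox genes the high ratio was held by 6 of 6 promoters of genes called up and 2 of 3 called down. It was also held by 13 of 15 tested and not called, and by 10 of 12 with at most 3 counts in every library. The called promoters are too few to show or exclude a link with direction. For NKX2-2 and MEIS3 the RefSeq start used lies 8625 and 2706 bp from the GENCODE start. The letters TATAAA, searched on both strands, were found in 2.44% of the homeobox promoters against 9.55% of the protein-coding ones. The homeodomain core TAATTA was found in 4.88% against 3.23%, and TGACAG, letters bound by MEIS and TGIF proteins, in 14.6% against 14.7%. The 3 strings were counted separately, overlaps included, and a match is a description of the letters only.

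NKX2-2, a Hedgehog-responsive factor of the ventral neural tube and of pancreatic islets (chromosome 20, 21511017 to 21514064, minus strand, GRCh38), had 2, 2 and 0 counts in the WT libraries and 309, 285 and 222 in the KO libraries. All 3 KO libraries were far above all WT libraries, and the WT counts did not exceed the floor. The level went from 0.0465 ± 0.0404 to 11.9 ± 1.12 CPM (SD, n = 3 each), a ratio of 202 with a 95% exact counting interval of 78.4 to 742, and the log2 fold change was 7.53 (SE 0.262, edgeR adjusted p = 2.72e-22). The size of this fold rests on 4 WT counts, and the SE, worked back from the F statistic of the test, understates its error. EN2, the engrailed factor of the midbrain-hindbrain border and cerebellum (chromosome 7, 155458129 to 155464831, plus strand), had the same WT counts, 2, 2 and 0, and 288, 311 and 185 in KO. As for NKX2-2, no KO library came near a WT library. Its KO level was 11.2 ± 0.721 CPM, with a ratio over WT of 194 (95% counting interval 75.3 to 713; edgeR adjusted p = 2.3e-22). The counting intervals cover counting error only, not the spread between cultures.

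MSX1 and MSX2 are BMP-responsive repressors of the developing face, teeth, skull and limbs. MSX1 (chromosome 4, 4859665 to 4863936, plus strand) had 4, 6 and 8 counts in WT and 328, 345 and 177 in KO, which is 0.146, 0.2 and 0.72 CPM against 13.3, 12.8 and 9.93. The groups did not overlap, and WT replicate 3, the library with the smallest total, held the highest WT level. The log2 fold change was 5.50 (SE 0.231, edgeR adjusted p = 5.35e-20), and it ran from 5.13 to 6.08 as single libraries were left out. MSX2 (chromosome 5, 174724582 to 174730896, plus strand) was already present in WT cells, with 295, 343 and 128 counts against 570, 612 and 397 in KO. Its level rose from 11.2 ± 0.418 to 22.7 ± 0.445 CPM, a ratio of 2.04 (95% counting interval 1.87 to 2.22), and its log2 fold change of 1.02 (edgeR adjusted p = 3.18e-13) sat at the threshold. The call was lost without WT replicate 1 (0.98).

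NKX3-2, a factor of cartilage and the axial skeleton (chromosome 4, 13540830 to 13544508, minus strand), had 12, 13 and 4 counts in WT and 40, 61 and 39 in KO. Every KO library was above every WT library, and the level rose from 0.41 ± 0.0437 to 2.03 ± 0.349 CPM, a log2 fold change of 2.24 (SE 0.266, edgeR adjusted p = 8.92e-09). PAX6, needed for the eye, forebrain and pancreatic islets (chromosome 11, 31784779 to 31817961, minus strand), had 9, 17 and 7 counts in WT against 55, 56 and 30 in KO. The groups did not overlap, at 0.508 ± 0.159 and 2.00 ± 0.284 CPM, and the log2 fold change was 2.06 (SE 0.263, edgeR adjusted p = 3.73e-08). ELP4, on the opposite strand, overlaps PAX6 and had a log2 fold change of 0.06 (edgeR adjusted p = 0.491). PROX1, the Prospero-class factor of lymphatic endothelium, liver and lens (chromosome 1, 213983181 to 214041510, plus strand), had 1, 3 and 2 counts in WT and 30, 29 and 23 in KO. Its WT counts did not exceed the floor, and its KO level was 1.20 ± 0.109 CPM (ratio 13.5, 95% counting interval 5.95 to 37.9; edgeR adjusted p = 4.76e-09).

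CDX2, which sets intestinal identity (chromosome 13, 27960918 to 27969315, minus strand), had 62, 68 and 17 counts in WT and 0, 0 and 0 in KO. It was the only called homeobox gene with no count in a whole group, and against the highest KO floor of 0.168 CPM it was at least 12-fold lower in KO (edgeR adjusted p = 5.17e-13). ISL1, a LIM factor of motor neurons, heart progenitors and islets (chromosome 5, 51383448 to 51394730, plus strand), had 409, 446 and 152 counts in WT and 9, 2 and 3 in KO. All WT libraries were far above all KO libraries, KO replicate 1 held most of the remaining counts, and the level went from 14.5 ± 0.703 to 0.203 ± 0.149 CPM. The ratio of WT over KO was 72.8 (95% counting interval 43.2 to 134), and the log2 fold change was -6.14 (SE 0.207, edgeR adjusted p = 1.1e-22), with a range of -6.96 (without KO replicate 1) to -5.66 as single libraries were left out. MEIS3, a TALE cofactor (chromosome 19, 47403124 to 47419527, minus strand), had 480, 484 and 198 counts in WT and 168, 203 and 114 in KO. Its groups were separate but it stayed well expressed, at 17.2 ± 0.89 against 6.92 ± 0.573 CPM, a log2 fold change of -1.29 (SE 0.0926, edgeR adjusted p = 8.38e-14).

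**Figure D2:**
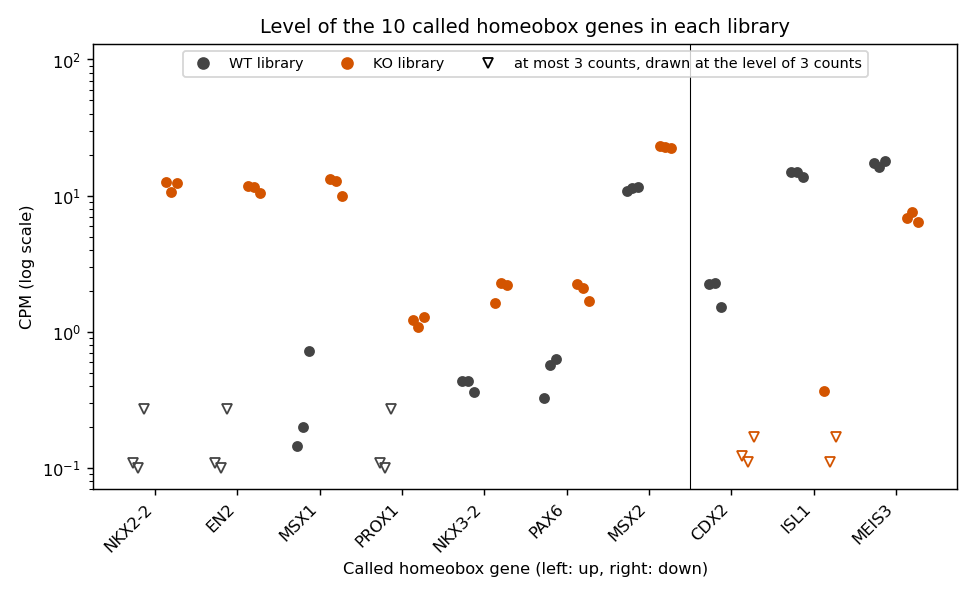
Level of each of the 10 called homeobox genes in every library, in CPM on a log axis, with 1 point per library. For each gene the WT and KO points are separate, with NKX2-2 and EN2 near 11.9 and 11.2 CPM in KO and CDX2 at 0 in all KO libraries.

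The groups were separate in 27 of the 29 tested homeobox genes, 14 higher and 13 lower in KO, where 66.4% of all tested genes were. The same 27 passed the adjusted p alone (63.9% of all genes), and each gave the exact permutation test's smallest two-sided p for 3 libraries against 3, 0.1. Both comparisons with all genes share the limit of the count filter. NKX2-2, EN2 and PROX1 passed it only through KO libraries and CDX2 and ISL1 only through WT libraries, so their separation was largely set by the filter. NKX3-2, MSX1 and PAX6 needed their KO libraries to pass it, so their separation shares this limit in part. Of the 27 genes, 7 higher and 10 lower had a log2 fold change inside 1 and -1 and were not called. Among them, TGIF2, a corepressor of TGF-beta signalling, came nearest to the threshold, with 36.3, 36.7 and 33.9 CPM in WT and 18.2, 19.2 and 17.3 in KO (log2 fold change -0.97, edgeR adjusted p = 3.93e-14), and it was called without KO replicate 2 (-1.01). MEIS2, a TALE cofactor, had 38.3, 42.7 and 41.6 CPM in WT and 77.6, 73.8 and 77.1 in KO (0.90, edgeR adjusted p = 2.53e-15). LMX1B, a factor of the dorsal limb and kidney, was at 26.7 ± 1.54 CPM in WT and 14.5 ± 0.366 in KO (-0.88, edgeR adjusted p = 3.3e-12). MEIS1, a factor of blood stem cells, was at 6.17 ± 1.04 and 3.25 ± 0.248 CPM (-0.86, edgeR adjusted p = 2.42e-06). Within the TALE class, TGIF2, MEIS1 and MEIS3 were thus lower and MEIS2 higher.

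The remaining shifts were between -0.69 and 0.39 on the log2 scale. Lower in KO were GBX2 (-0.69), a midbrain-hindbrain factor, OTX1 (-0.68) of the cortex, PRRX2 (-0.59) of embryonic mesenchyme, LHX2 (-0.53) of the eye and forebrain, LHX6 (-0.28) of cortical interneurons, PBX2 (-0.28) and ALX4 (-0.24) of the skull. Higher were NKX2-5 (0.39) of the heart, TGIF1 (0.33), PITX1 (0.33) of the hindlimb, ISL2 (0.28) of motor neurons, EN1 (0.27) and PBX3 (0.15). The adjusted p of LHX2, ISL2, EN1, LHX6 and PBX3 lay between 0.00585 and 0.0136 and in each case went above 0.05 in at least 1 fit with a library removed, and ISL2 dropped to 0.14 without WT replicate 2 (adjusted p = 0.216). BARX1, a stomach and tooth factor, and PAX9, a PAX protein without a homeodomain, did not pass the test. BARX1 was at 41.3 ± 0.681 CPM in WT and 41.0 ± 4.73 in KO (edgeR adjusted p = 0.984), and PAX9 at 5.17 ± 0.191 and 5.21 ± 0.341 (edgeR adjusted p = 0.964), and the sign of both differences changed between settings.

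**Figure D3:**
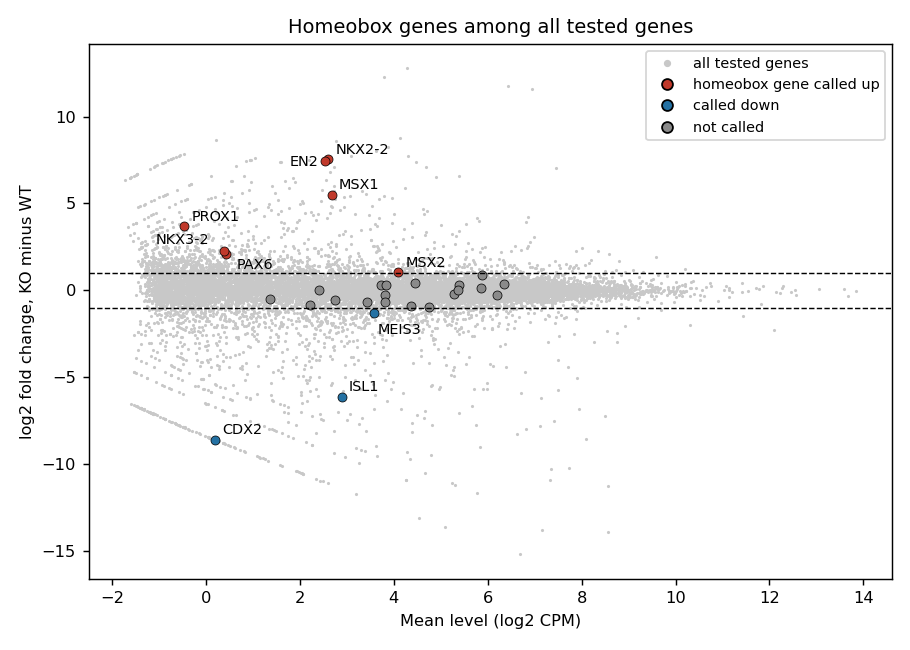
Log2 fold change, KO minus WT, against mean level in log2 CPM for all 16198 tested genes (grey) with the 29 homeobox genes marked by call and dashed lines at 1 and -1. The 7 genes called up and the 3 called down, all named, lie at the low to middle part of the level axis, and the homeobox genes at higher levels lie inside the dashed lines.

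The calls by class are read beside the 8.30% of all tested genes called up and 7.73% called down. Of the 17 ANTP-class genes 10 were tested, with 5 called up (NKX2-2, EN2, MSX1, NKX3-2, MSX2) and 1 down (CDX2), but 5 reached 10 counts in all libraries and of those only MSX2 was called. Of the 7 PAX genes 2 were tested, with PAX6 called up. The 4 tested paired-like genes (OTX1, PITX1, PRRX2, ALX4) had no call, 5 of 10 LIM genes were tested with ISL1 called down, and 7 of 12 TALE genes were tested with MEIS3 called down. With 10 counts in all libraries, 1 PAX gene, 4 LIM genes and 7 TALE genes remained, and of these only MEIS3 was called. The difference between classes was not tested.

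On a scale that allows levels of different genes to be compared, CPM per kilobase of exon, the most abundant homeobox RNA in both groups was BARX1, at 23.5 ± 0.388 in WT and 23.4 ± 2.70 in KO. It was followed in WT by PBX2 (18.3 ± 0.898), PBX3 (11.2 ± 0.438), PITX1 (10.9 ± 0.948) and NKX2-5 (9.32 ± 0.709), where neither PBX3 and PITX1 nor PITX1 and NKX2-5 differed by more than their SDs added together. In KO the order was PBX2 (15.1 ± 0.334), PITX1 (13.4 ± 1.10), PBX3 (12.5 ± 0.234) and NKX2-5 (12 ± 1.15), and the last 3, each beside the next, differed by less than their SDs added together. None of these 5 genes was called.

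On the same per-length scale, the share of each paralogue in its family was compared between the groups. EN2 made up 0.45%, 0.42% and 0% of the EN1 and EN2 RNA in WT and 37.3%, 37.9% and 38.5% in KO, and the summed level of both genes went from 4.42 to 8.72. MSX1 made up 1.40%, 1.80% and 6.15% of the MSX RNA in WT and 37.6%, 37.2% and 31.9% in KO, with the sum going from 5.22 to 15.9. ISL1 held 45.8%, 53.5% and 46.8% of the ISL1 and ISL2 RNA in WT and 1.99%, 0.383% and 0.899% in KO, so that nearly all ISL RNA in the clone was ISL2. In the TALE families the shares moved more than the sums. TGIF2 was 50.3% ± 1.10 of TGIF1 and TGIF2 in WT and 29.2% ± 1.18 in KO, with sums of 17.8 and 15.7. MEIS2 was 46.8% ± 2.42 of the 3 MEIS genes in WT and 79.5% ± 1.44 in KO, with sums of 7.35 and 8.05. For each of these shares the 3 WT libraries were separate from the 3 KO libraries (exact permutation test, two-sided p = 0.1 each, the smallest possible).

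The other 25 homeobox genes were not tested. No library held a count of NKX6-1, NKX6-2, EMX2, CDX1, PAX3, PAX7, OTX2, PRRX1, ALX1, LHX4, LMX1A, IRX1 or IRX2, and EMX1, BARX2, PAX5, LHX1, IRX4 and IRX5 had at most 3 counts in any library, so these 19 were not detectable above the floor at this depth. Another 6 were above 3 counts somewhere. LHX9, a LIM factor of the gonad, limb and brain, had 14, 20 and 4 counts in WT and 1, 0 and 0 in KO. All WT libraries were above all KO libraries, and LHX9 was called down in 6 alternatives whose filter kept it, among them DESeq2 and 4 of the fits with a library removed (log2 fold change -6.66 to -4.25). LHX8 had 7, 0 and 1 counts in WT and none in KO, and was called down only with no count filter (edgeR adjusted p = 0.0175). PAX8, a marker of Müllerian epithelium, had 6, 6 and 2 counts in WT and 3, 1 and 0 in KO, PAX2 had 1, 2 and 0 against 5, 3 and 3, NKX2-1 had 2, 5 and 1 against 6, 1 and 2, and IRX3 had 3, 3 and 3 against 3, 4 and 2.

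Genes beside the called homeobox genes were compared by position, which the choice of genes did not use. Within 250 kb of the starts of the 10 called genes, 102 other genes were listed and 31 were tested, of which 4 were called up and 3 down, or 22.6% beside 16.0% of all tested genes. With 10 counts in all libraries, 3 of 23 were called, or 13.0% beside 9.35%. Of the 7 called neighbours 4 changed in the direction of their homeobox gene and 3 against it. ISL1-DT, a noncoding RNA that starts 116 bp from ISL1 on the other strand, had 27, 36 and 13 counts in WT and 2, 1 and 0 in KO, and so fell with ISL1 (log2 fold change -4.52, edgeR adjusted p = 1.84e-09). PROX1-AS1 overlaps PROX1 on the opposite strand and had 0, 3 and 0 counts in WT and 78, 45 and 42 in KO (5.60, edgeR adjusted p = 7.02e-12). The library kit kept the strand, but the strand setting of the counting is not given in the sources used here, so reads of PROX1 and PROX1-AS1 in their overlap may not be separated. PDX1, the pancreatic homeobox factor 49315 bp from the start of CDX2, had 35, 31 and 11 counts in WT and 4, 3 and 1 in KO (-3.22, edgeR adjusted p = 2.17e-08). The noncoding gene ENSG00000278041, 11130 bp from the start of NKX2-2, was present in both groups, at 9.97 ± 0.267 and 29.3 ± 1.46 CPM (1.56, edgeR adjusted p = 4.64e-18). Moving against their neighbour were LINC00543, 15789 bp from CDX2 (0.534 to 1.18 CPM), BBC3, 186761 bp from MEIS3 (10.5 to 29.1 CPM), and STK32B, 191815 bp from MSX1 (14.4 to 4.95 CPM). EN2-DT, 1030 bp from EN2, had no count in WT and 4, 13 and 4 in KO and did not pass the count filter. Beside TGIF2, DLGAP4-AS1, whose start is 97 bp from that of TGIF2, had 41, 25 and 16 counts in WT and 6, 10 and 8 in KO (-1.78, edgeR adjusted p = 2.27e-05). Partners of other homeobox genes that were not called went both ways. GBX2-AS1 and EHBP1-AS1 did not fall with GBX2 and OTX1 (0.12 and 0.29, edgeR adjusted p = 0.646 and 0.517). PITX1-AS1 was higher, as PITX1 was (0.81, edgeR adjusted p = 0.0123).

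Other homeobox genes and the proteins that work with them were counted from lists. Among 64 close relatives, 22 were tested and 3 were called up and 3 down, or 27.3% beside 16.0% of all tested genes. Of the 17 that reached 10 counts in all libraries 2 were called, or 11.8% beside 9.35%. VAX1, a factor of the ventral forebrain, had 273, 305 and 122 counts in WT and 3, 3 and 4 in KO (log2 fold change -6.10). BARHL2, a neural factor, had 4, 7 and 0 against 115, 128 and 76 (4.79), MKX, the tendon factor Mohawk, went from 0.527 to 6.00 CPM (3.48), HESX1, a pituitary and forebrain factor, from 2.70 to 5.57 CPM (1.06), and PKNOX2 fell from 3.34 to 0.65 CPM (-2.33). In the more distant POU, ZEB, ZHX and CUX classes and their like, 16 of 30 genes were tested, with 3 called up and 1 down. That is 25.0% beside 16.0% of all tested genes. Of the 11 that reached 10 counts in all libraries 0 were called, beside 9.35%. POU3F3, a neural POU factor, had no count in WT and 26, 29 and 27 in KO, at least 4.51-fold higher, ZHX2 had 1, 4 and 1 against 66, 74 and 45, POU4F1 rose by 1.78 on the log2 scale, and POU3F1 fell from 1.21 to 0.448 CPM.

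LIM homeodomain proteins work through LDB1, for which LMO proteins compete. Among 20 partner and corepressor genes, 16 were tested and LMO4 was the one called, or 6.25% beside 16.0% of all tested genes. With 10 counts in all libraries the share was again 6.25%, beside 9.35% of all genes of that fit. LMO4 had 16381, 16082 and 5724 counts in WT and 37, 37 and 25 in KO, a fall from 549 ± 42.7 to 1.43 ± 0.0687 CPM (ratio 390, 95% counting interval 321 to 480; edgeR adjusted p = 1.15e-36), beside an LDB1 log2 fold change of -0.18. Among 35 genes of the Hedgehog, BMP and retinoic acid signals that induce many of these factors, 26 were tested, with 2 called up and 5 down. That is 26.9% beside 16.0% of all tested genes. Of the 22 with 10 counts in all libraries 3 were called, or 13.6% beside 9.35%. The retinoic acid enzyme ALDH1A1 had 212, 226 and 75 counts in WT and 1, 1 and 0 in KO, ALDH1A3 went from 14.7 ± 1.39 to 0.218 ± 0.0951 CPM, and the retinoic acid carrier CRABP2 from 65.8 ± 5.02 to 6.51 ± 0.789. The Hedgehog receptor PTCH1 fell from 36.4 ± 1.66 to 8.28 ± 0.84 CPM and its effector GLI2 from 23.8 ± 2.03 to 3.42 ± 0.301, while the ligand DHH had 1, 4 and 1 counts in WT and 33, 32 and 17 in KO. The part of these signals in the homeobox changes, that of NKX2-2 included, was not tested.

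CDK12 itself, counted over the whole gene and not only its edited exon, was at 115 ± 11.1 CPM in WT and 97.9 ± 4.63 in KO (log2 fold change -0.23, edgeR adjusted p = 8.2e-04), so its level does not check the labels. The ovarian and Müllerian markers SOX17, EMX2, KRT7 and MUC16 had at most 3 counts in every library, and the 12 markers of that list summed to 68.6 to 74.0 CPM in WT and 114 to 119 in KO, mostly KRT18. Defining markers of leukocytes (PTPRC, CD3E, HLA-DRA) and endothelium (PECAM1, CDH5, KDR, TEK) were at or under the floor in all 6 libraries. The leukocyte list summed to 0.18 to 0.583 CPM in WT and 0.0561 to 0.223 in KO. The endothelial list summed to 0.146 to 0.367 CPM in WT and 0.73 to 0.928 in KO, and its other gene, VWF, was called up, with 2, 7 and 3 counts in WT and 18, 22 and 10 in KO (log2 fold change 2.00, edgeR adjusted p = 1.04e-04). The fibroblast markers COL1A1, COL1A2, COL3A1 and PDGFRB were present in both groups. DCN had 19, 23 and 9 counts in WT and LUM 20, 17 and 6, and both had none in KO. Of the 6 markers, 4 were called down in KO (COL1A1, DCN, LUM, PDGFRB), beside 16.0% of all tested genes called in either direction. With 10 counts in all libraries, 2 of 4 were called down, beside 9.35% called in either direction. The fibroblast list summed to 11011 to 11376 CPM in WT and 8520 to 8799 in KO. The neural list, with SOX10, ELAVL4 and STMN2 at or under the floor, summed to 7.02 to 7.58 against 3.31 to 3.82. The part of these markers in the homeobox changes was not tested, and in bulk RNA fewer cells that read a gene and less RNA per cell cannot be told apart.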

How the data were processed

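Raw counts for each gene in 6 libraries were deposited by the authors. Stranded, single-ended RNA-seq reads were checked with FastQC, aligned with STAR to GRCh38 and counted with HTSeq. Tool versions, the annotation release, the strand setting of the counting and the handling of reads with several matches are not given in the sources used here. Groups followed the genotype given for each library. No source says that the libraries of a group came from separate cultures, so p-values measure only the spread between these libraries, which may be technical, and no sequencing batch is given.

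Symbols, positions and exon lengths came from GENCODE release 44, which held 56321 of the 60483 identifiers (93.1%), and promoter sequences from RefSeq (GRCh38.p14). In edgeR 4.0.16 (R 4.3.3), genes passing filterByExpr (minimum count 10, minimum total count 15) were scaled with TMM and compared by the quasi-likelihood test, two-sided, with Benjamini-Hochberg adjustment over 16198 genes. CPM used TMM-scaled totals. Each standard error (SE) is the size of the log2 fold change divided by the square root of the test's F statistic. It understates the error where a group is near the floor, as for NKX2-2, MSX1 and ISL1. The common biological coefficient of variation was 4.35%. Libraries within a group differed beyond counting error (chi-square per degree of freedom 1.72 to 7.05), so no library was counted as a repeat deposit of another. Ratios of pooled CPM carry an exact conditional binomial 95% interval, which covers counting error only, as do floors of 3 counts. The exact permutation test used log2(CPM + 0.1).

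The homeobox genes and the lists of relatives, partners, signals and markers were chosen with earlier results of these data known. All homeobox genes are accounted for. Those called, those past the adjusted p alone and the 5 with the highest level per length are given with values, with at most 6 called genes from each other list and the called neighbours. DLGAP4-AS1, GBX2-AS1, EHBP1-AS1, PITX1-AS1, EN2-DT, ELP4, LDB1, the untested genes above 3 counts and the marker genes were named after their values were seen. A few genes of these lists are not reported here and were left out of the lists' counts and sums. HOMEZ had no entry under its symbol. Alternatives were voom/limma (limma 3.58.1), DESeq2 1.42.0, other scalings, filters and thresholds, libraries thinned to the smallest total and the omission of each library. The fits were tested on simulated data. Remaining steps used scipy 1.17.1, pandas 2.3.3 and numpy 2.4.6 in Python 3.11.15.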

Additional observations from a re-analysis of the deposited data

How the results depend on the processing

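No paired analysis was possible because the labels number the 6 libraries without pairing any WT library with a KO library. Counts of calls moved with the filter: with at least 10 counts in every library, 567 genes were called up and 687 down, with 1 homeobox gene each way and a median over the 21 homeobox genes tested of -0.22 (8 homeobox genes below that minimum in at least 1 library were left out). With no filter 5 homeobox genes were called down. By the adjusted p alone 5165 genes were higher and 5188 lower, with 14 and 13 homeobox genes, and 756 genes were up and 931 down in a test against the fold threshold itself, where MSX2 was not called. Leaving out 1 library gave 3 to 5 homeobox genes called down, 5 of them without KO replicate 2, where LHX9 and TGIF2 were added, and without WT replicate 1 MSX2 was not called. Of 368 single-gene values under an alternative, 356 kept their direction and call. The BARX1 difference, near 0, changed sign with upper quartile scaling (0.03), no filter (7.3e-04), the stricter filter (0.02) and thinning (0.06), and ran from -0.09 to 0.07 as single libraries were left out. That of PAX9 ran from -0.03 to 0.05. After thinning MSX2 was at 1.00 and no longer called. PROX1, left with 0, 2 and 2 counts in WT and 9, 9 and 12 in KO, no longer passed the count filter. ISL1 was then at -6.83, and NKX2-2 was at 10.01, a value that depends on the fit's prior count because no WT count was left. The cause of the changes of sign was not tested. Depth limits the 19 homeobox genes at or under the floor, and WT replicate 3, with the smallest total, has the highest floor.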
